A study of Homo sapiens with 66 samples.

Results

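The difference in the response to etoposide between THP1 and NOMO1 was measured in 12 of the 66 RNA-seq libraries of the series. THP1 and NOMO1 are established human AML lines of the monocytic type that carry the KMT2A-MLLT3 fusion. Each was sampled without drug and after 24 h with etoposide, with 3 biological replicates in each of the 4 groups. The libraries were chosen by their line and treatment labels, with no measured value used. For each gene, the log2 fold change of etoposide over untreated cells in NOMO1 was subtracted from that in THP1, so a positive difference means a higher response in THP1. The series covers 11 AML lines, each sampled untreated and after etoposide. By the study's account, growth medium, serum and supplements were not the same for all lines. Untreated cells received medium alone, and each RNA sample was pooled from 3 wells. Etoposide was given at the IC50 of each line, so the concentration differed between THP1 and NOMO1, and line and concentration cannot be told apart. Each line is 1 culture lineage, and the replicates measure the spread within it.

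Etoposide traps topoisomerase II on cut DNA and leaves double-strand breaks. Such breaks activate checkpoint kinases and, in many cells, NF-kB, a family of transcription factors that switches on cytokines, chemokines and survival genes. Monocytic leukemia cells also carry an interferon response, in which STAT and IRF factors switch on antiviral genes, and a stress response, in which ATF4 switches on genes of amino acid supply and stress adaptation.

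The libraries held between 18907941 and 22064262 reads on genes. Normalised read counts are given as CPM, the usual measure of counts relative to the library size, here after TMM normalisation. Every pair of replicates lay further apart than counting noise, by a ratio of chi-square to its degrees of freedom of between 5.65 and 48.4, and the highest ratios belonged to the pairs with THP1 etoposide replicate 2. Among NOMO1 libraries, etoposide replicate 2 lay highest for genes such as BIRC3 and CXCL10. Of the 10 monocytic markers, CSF1R, LYZ, ITGAM, ITGAX, FCER1G, TYROBP, CD33 and SPI1 were above 10 CPM in all 4 groups. CD14 averaged 7.70 CPM in untreated THP1 and 0.281 CPM in untreated NOMO1. CD68 stayed under 1 CPM in every group, and the annotation places another RNA gene over it on the same strand. NOMO1 also expressed the T cell gene CD3D, at 167 CPM untreated and 208 CPM after etoposide, and the keratins KRT8 and KRT18, while erythroid globins were at or near 0 in both lines. The summed level of 7 stromal and epithelial markers lay between 66.4 and 75.6 CPM in untreated NOMO1 and between 159.7 and 177 CPM after etoposide. The 8 lymphoid markers summed to between 204.5 and 233.8 CPM in untreated and between 278.8 and 304.3 CPM in treated NOMO1, and to at most 47.7 CPM in any THP1 library. The 8 erythroid markers went from between 11.6 and 17.7 CPM to between 21.6 and 24.5 CPM in NOMO1, nearly all of it GATA1, and the 4 megakaryocyte markers from between 13.1 and 26.4 CPM to between 34.5 and 46 CPM, mostly ITGA2B, with PF4 at 0. In THP1 the erythroid markers summed to at most 0.108 CPM and the megakaryocyte markers to at most 3.53 CPM. The part of these markers in the results was not tested. The sum of 10 monocytic markers lay between 1136 and 1247 CPM in untreated THP1, between 1921 and 1964 CPM in etoposide-treated THP1, and between 1041 and 1311 CPM over the 6 NOMO1 libraries. In bulk RNA, fewer cells of a kind and less RNA per cell cannot be told apart.

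Both lines responded with more inductions than repressions. Among 16581 genes tested by edgeR's quasi-likelihood test, a gene was called with an adjusted p (FDR) below 0.05 and a fold change above 2. In THP1, 1192 genes (7.19%) were induced and 499 (3.01%) were repressed. NOMO1 showed 1305 induced genes (7.87%) and 826 repressed genes (4.98%). Called in both lines were 513 inductions and 157 repressions. Across the 16581 genes the log2 fold changes of both lines had a Pearson r of 0.498, and an r of 0.627 over the 12404 genes with at least 1 CPM in each line, as a description across genes, which are not independent.

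The response itself differed between the lines for 1005 genes, of which 843 are protein coding. The difference was higher in THP1 for 627 genes (3.78%) and lower in THP1 for 378 genes (2.28%). The share of higher calls varied with the scaling. It was 62.4% with TMM and 59.0% with RLE, another normalization, under which 586 genes were higher and 407 lower. DESeq2 gave 546 higher and 391 lower, and limma voom 652 and 430. With library size alone, 482 genes were higher and 507 lower, a share of 48.7%. The median difference of all genes was 0.05 on the log2 scale with TMM and -0.06 with library size alone, and each difference below is to be read beside these medians. Without NOMO1 etoposide replicate 2 the counts were 444 higher and 301 lower, and without THP1 etoposide replicate 2 they were 590 and 343.

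The differences fell into a few plain forms. Of the 627 genes higher in THP1, 242 were induced in THP1 and not called in NOMO1, 172 were repressed in NOMO1 and not called in THP1, 48 were induced in both lines, 12 were induced in THP1 and repressed in NOMO1, and 145 were called in neither line. Of the 378 genes lower in THP1, 198 were induced in NOMO1 and not called in THP1, 46 were repressed in THP1 and not called in NOMO1, 27 were induced in both, and 101 were called in neither. Among all 2452 genes called in 1 line and not in the other, 658 had a called difference. A gene past the threshold in 1 line alone therefore did not, in most cases, have a called difference between the lines.

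**Figure D1:**
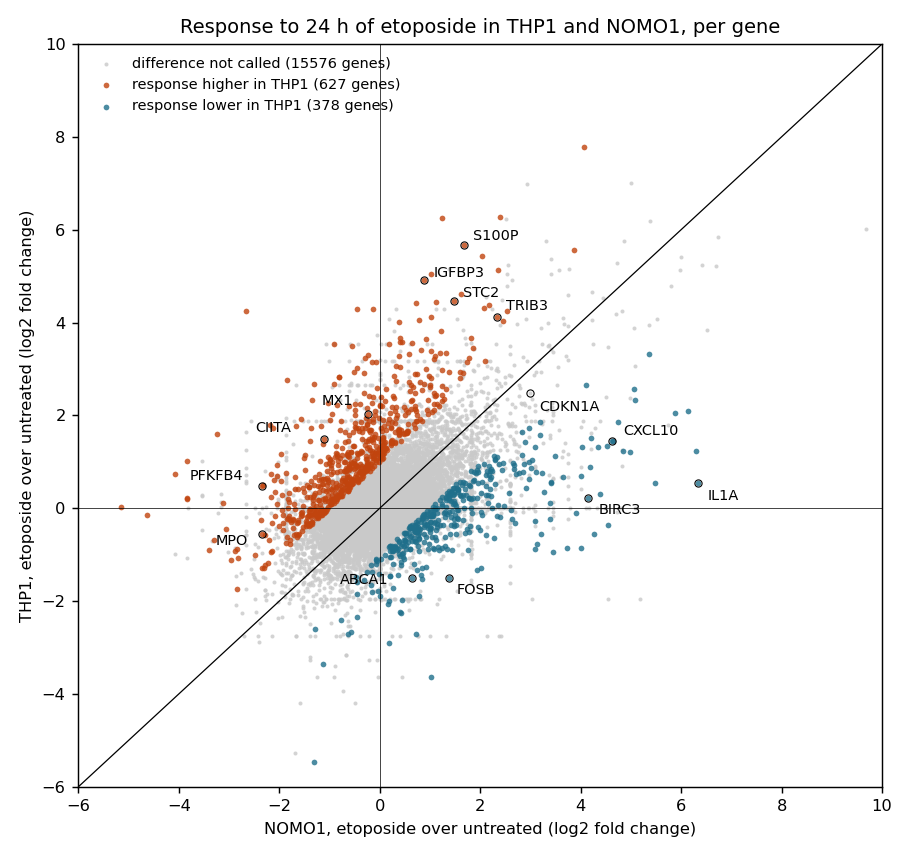
Log2 fold change of etoposide over untreated cells in NOMO1 (horizontal axis) and THP1 (vertical axis) for each of 16581 genes, with the line of equal response. The 627 orange genes lie above the line and the 378 blue genes below it, and CDKN1A, open circle on grey, was induced in both lines with no called difference.

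The 29 gene lists cover textbook pathways, lineage markers and genes the study followed up, and were chosen with earlier results of these data known. They held 646 distinct genes tested. Of these, 43 (6.66%) had a higher and 35 (5.42%) a lower response in THP1, beside 3.78% and 2.28% of all genes. The called members of the NF-kB and chemokine lists all responded less in THP1, and those of the MHC class II list all responded more.

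Promoter sequences of genes from the NF-kB, chemokine and interferon lists are shown. Called differences of the NF-kB and chemokine lists were lower in THP1, and those of the interferon list were mostly higher. RefSeq windows on GRCh38.p14 run from 250 bases before to 50 bases after a gene's start. They were found by symbol for 11730 of the 16576 gene symbols tested. In the next 3 windows the capitals mark matches to the NF-kB motif, on either strand. They belong to BIRC3 at chr11:102317234-102317533 on the plus strand, NFKB2 at chr10:102394328-102394627 on the plus strand, 1 of 3 windows of that gene, and CXCL10 at chr4:76023448-76023747 on the minus strand. The NFKB2 window shown is the one with the most matches, and its other windows hold 0 and 2. CXCL10 is a member of the chemokine list. Its window also holds a match to the interferon response element GAAANNGAA, at position -221 from the start, left in lower case.
BIRC3: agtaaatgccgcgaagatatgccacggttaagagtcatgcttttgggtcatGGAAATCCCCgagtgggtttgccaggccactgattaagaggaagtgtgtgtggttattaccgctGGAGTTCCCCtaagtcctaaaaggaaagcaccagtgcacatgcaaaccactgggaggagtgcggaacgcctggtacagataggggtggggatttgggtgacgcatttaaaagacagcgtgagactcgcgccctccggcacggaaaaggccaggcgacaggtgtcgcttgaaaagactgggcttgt
NFKB2: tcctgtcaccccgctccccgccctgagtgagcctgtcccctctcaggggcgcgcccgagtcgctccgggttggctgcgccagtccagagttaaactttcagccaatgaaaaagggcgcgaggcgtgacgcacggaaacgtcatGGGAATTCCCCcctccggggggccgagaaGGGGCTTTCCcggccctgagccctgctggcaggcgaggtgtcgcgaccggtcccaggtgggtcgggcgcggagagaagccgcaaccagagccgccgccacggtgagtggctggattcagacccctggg
CXCL10: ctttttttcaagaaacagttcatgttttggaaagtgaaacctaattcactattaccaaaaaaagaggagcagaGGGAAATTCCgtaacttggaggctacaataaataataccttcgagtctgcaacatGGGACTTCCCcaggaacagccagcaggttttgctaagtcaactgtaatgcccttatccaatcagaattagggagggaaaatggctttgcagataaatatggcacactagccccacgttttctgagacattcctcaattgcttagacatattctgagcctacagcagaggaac

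The following 3 windows belong to interferon-stimulated genes, with matches to the interferon response element GAAANNGAA on either strand in capitals. They are MX1 at chr21:41420308-41420607 on the plus strand, 1 of 3 windows, EPSTI1 at chr13:42992192-42992491 on the minus strand, and IFI27 at chr14:94110486-94110785 on the plus strand, 1 of 2 windows. In MX1 the pair of matches overlap, and the other windows of MX1 hold 0 matches and 1 match.
MX1: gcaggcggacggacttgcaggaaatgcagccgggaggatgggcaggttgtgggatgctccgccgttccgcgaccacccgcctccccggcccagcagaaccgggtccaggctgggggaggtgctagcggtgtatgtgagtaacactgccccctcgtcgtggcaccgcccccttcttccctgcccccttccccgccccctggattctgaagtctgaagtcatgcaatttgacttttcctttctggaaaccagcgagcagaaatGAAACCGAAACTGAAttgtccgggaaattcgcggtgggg
EPSTI1: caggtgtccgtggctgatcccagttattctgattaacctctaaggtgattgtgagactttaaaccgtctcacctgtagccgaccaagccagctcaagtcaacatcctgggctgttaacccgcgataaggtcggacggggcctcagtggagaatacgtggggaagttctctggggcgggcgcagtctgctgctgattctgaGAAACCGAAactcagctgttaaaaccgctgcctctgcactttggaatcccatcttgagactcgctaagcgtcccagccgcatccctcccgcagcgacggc
IFI27: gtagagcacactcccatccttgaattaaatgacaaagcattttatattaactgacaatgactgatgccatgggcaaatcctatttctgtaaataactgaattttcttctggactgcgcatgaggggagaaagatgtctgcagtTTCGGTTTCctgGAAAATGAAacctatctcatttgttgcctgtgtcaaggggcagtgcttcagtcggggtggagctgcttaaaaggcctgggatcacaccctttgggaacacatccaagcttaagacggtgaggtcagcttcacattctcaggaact

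The NF-kB motif was in 18 of 33 windows of the NF-kB list (54.5%), beside 5.91% of all 35116 promoter windows and 6.71% of the 17028 windows of genes tested. Among interferon-stimulated genes 28 of 41 windows (68.3%) held GAAANNGAA, beside 8.11% of all windows and 6.80% of those of genes tested. These lists were composed of known targets of those factors. Over the windows of all genes with a higher response in THP1, 7.45% held GAAANNGAA and 9.24% the NF-kB motif, and over those with a lower response 8.96% and 7.96%. The AP-1 motif TGANTCA was in 9.54% and 8.71% of those windows, beside 7.71% of all windows and 5.44% of those of genes tested. The cyclic AMP element TGACGTCA was in 1.04% and 3.48%, beside 1.85% and 2.66%. An E2F motif, searched as TTTCCCGC, TTTCGCGC, TTTGCCGC or TTTGGCGC, was in 2.53% and 3.23%, beside 3.31% and 4.68%. The p53 motif was searched as RRRCWWGYYY, with R for A or G, W for A or T and Y for C or T. These letters are a part of a full p53 element. The p53 motif was in 5.81% and 7.96%, beside 6.63% and 5.78%. Against the windows of all genes and against those of genes tested, the shares of GAAANNGAA and of the p53 motif on the higher side thus fell on different sides. A match is a description of letters and does not show binding.

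The called differences of NF-kB pathway and feedback genes all lay on the side of NOMO1. Of 22 members tested, 4 had a lower and 0 a higher response in THP1, and the median difference was -0.46. In NOMO1, 12 members were induced with a median log2 fold change of 1.01, and in THP1 7 were induced with a median of 0.41. BIRC3, an inhibitor of apoptosis and a classical NF-kB target, stood at 1.57, 1.12 and 1.51 CPM in untreated THP1 and at 1.74, 1.05 and 2.08 CPM after etoposide. In NOMO1 it went from 3.57, 2.85 and 3.67 CPM to 33.5, 106 and 37.8 CPM. The THP1 groups overlapped, while all 3 treated NOMO1 libraries lay above the untreated ones, with replicate 2 far above the others. The difference of log2 fold changes was -3.91 (standard error 0.59, adjusted p = 6.57e-05).

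NFKB2 and RELB, subunits of the non-canonical NF-kB pathway, rose in both lines and differed in size. NFKB2 was at 21.5, 22.4 and 21.5 CPM in untreated THP1 and at 38.3, 55.9 and 39.4 CPM after etoposide, and NOMO1 went from 23.0, 23.2 and 25.1 CPM to 110, 148 and 91.3 CPM. The untreated levels of the lines were close, and the treated levels did not overlap between the lines. The difference was -1.26 for NFKB2 (standard error 0.22, adjusted p = 0.000266) and -1.20 for RELB (standard error 0.26, adjusted p = 0.00259). TNFAIP3, which encodes the feedback inhibitor A20, was the fourth member, with a difference of -1.02 (standard error 0.20, adjusted p = 0.000836). Without NOMO1 etoposide replicate 2, 2 members stayed past the limits and RELB, at -0.99, fell just inside a ratio of 2.

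Chemokines, the secreted proteins that attract leukocytes, were induced in both lines. Of 18 tested, 16 were induced in NOMO1 and 11 in THP1, with median log2 fold changes of 2.19 and 1.42. The response was lower in THP1 for CXCL10, CXCL11 and CCL22, and higher for 0 members. CXCL10, a ligand of CXCR3, rose in NOMO1 from 1.54, 1.47 and 1.55 CPM to 25.3, 65.5 and 22.7 CPM, and in THP1 from 0.703, 0.426 and 0.484 CPM to 1.74, 1.00 and 1.69 CPM. All treated NOMO1 libraries lay above all THP1 libraries, with a difference of -3.17 (standard error 0.72, adjusted p = 0.00327). CXCL8, the main neutrophil attractant, rose in both lines with no called difference, at log2 fold changes of 3.53 in THP1 and 4.24 in NOMO1.

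Among 25 cytokine and receptor genes the calls went both ways, 3 higher and 4 lower in THP1, with a median difference of 0.36. Without any 1 of the untreated THP1 libraries, 2 of the 4 lower calls were left. IL1A and IL1B, which encode the interleukin-1 cytokines, lay on the lower side with TNFRSF9 and TNFSF15. IL1B was at 2.16, 2.45 and 1.83 CPM in untreated THP1 and 14.01, 11.7 and 14.7 CPM after etoposide. NOMO1 went from 3.07, 1.66 and 2.07 CPM to 34.4, 53.5 and 29.9 CPM. Both lines therefore induced IL1B, and the response was lower in THP1 by 1.47 on the log2 scale (difference -1.47, standard error 0.33, adjusted p = 0.00317). IL1A had 292 reads over the treated NOMO1 libraries and at most 8 reads over any other group, and its call was lost without THP1 untreated replicate 2 (adjusted p = 0.0927 by edgeR). On the higher side were VEGFA, which encodes the main angiogenic growth factor, OSM and IL6R. VEGFA rose in THP1 from 12.1, 15.3 and 13.4 CPM to 121, 137 and 128 CPM and in NOMO1 from 69.7, 68.1 and 69.0 CPM to 250, 237 and 223 CPM. Its difference was 1.46 (standard error 0.15, adjusted p = 6.36e-07).

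Early response genes, transcription factors and phosphatases that answer signals within minutes to hours, had 5 members with a lower and 2 with a higher response in THP1 among 29 tested. FOSB, an AP-1 subunit, fell in THP1 from 2.22, 1.44 and 2.31 CPM to 0.773, 0.790 and 0.532 CPM and rose in NOMO1 from 1.74, 1.24 and 2.07 CPM to 5.09, 4.505 and 3.48 CPM. Treated and untreated libraries did not overlap in either line, and the difference was -2.88 (standard error 0.38, adjusted p = 1.25e-05). JUNB, DUSP1 and DUSP4 were also lower, and NR4A1 and FOSL1 were the higher ones. ATF3 and JUN were induced in both lines and had no called difference, and ATF3 had log2 fold changes of 4.54 in THP1 and 4.45 in NOMO1.

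The p53 target list had 25 members tested, with 6 induced in THP1 and 9 in NOMO1 and medians of 0.61 and 0.62. Only PHLDA3 and BBC3 had a called difference in this list, and both were lower in THP1, PHLDA3 with an adjusted p of 0.0579 by edgeR without NOMO1 untreated replicate 3. PHLDA3 had 7 reads over the untreated and 51 over the treated NOMO1 libraries, so its difference rests on few reads. BBC3, which encodes the BH3-only killer PUMA, was at 7.46, 8.79 and 9.42 CPM in untreated THP1 and 10.1, 20.02 and 15.7 CPM after etoposide. In NOMO1 it rose from 9.77, 10.5 and 9.72 CPM to 46.9, 65.6 and 49.4 CPM. All treated NOMO1 libraries lay above all treated THP1 libraries, and the difference was -1.60 (standard error 0.26, adjusted p = 0.00012). PMAIP1, which encodes the related protein NOXA, differed by -1.01 (standard error 0.18, adjusted p = 0.000298), and leaving out 1 library brought it as low as -0.92, inside a ratio of 2. CDKN1A, the CDK inhibitor p21 and a gene of the same list, was induced in both lines, from 67.1, 78.5 and 80.5 CPM to 375, 479 and 404 CPM in THP1 and from 21.6, 25.4 and 26.1 CPM to 203, 216 and 164 CPM in NOMO1. Its difference of -0.52 (standard error 0.17, adjusted p = 0.040) lay within a ratio of 2. MDM2, the p53 ubiquitin ligase, had log2 fold changes of 0.10 in THP1 and 0.60 in NOMO1, and the latter lay under a ratio of 2.

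Of 43 genes of DNA replication and the G1/S transition, CCNE2 and E2F8 responded less in THP1 and 0 responded more. Beside 2.28% lower and 3.78% higher of all genes, these small counts are no result about the list. The median log2 fold change was 0.24 in THP1 and 0.49 in NOMO1, and the median difference was -0.19. CCNE2, a cyclin E that drives entry into S phase, was at 81.5, 90.3 and 79.7 CPM in untreated THP1 and at 96.6, 57.0 and 98.5 CPM after etoposide, where replicate 2 was the low one. In NOMO1 CCNE2 rose from 43.3, 39.3 and 32.5 CPM to 89.7, 159 and 118 CPM, with a difference of -1.67 (standard error 0.25, adjusted p = 6.74e-05). E2F8, an E2F family repressor, had log2 fold changes of 0.16 in THP1 and 1.42 in NOMO1, with a difference of -1.25 (standard error 0.18, adjusted p = 3.35e-05). Among 41 G2/M mitotic genes, 2 were repressed past a ratio of 2 in each line, beside 3.01% of all genes in THP1 and 4.98% in NOMO1. By FDR alone, 20 fell and 2 rose in THP1, and 10 fell and 8 rose in NOMO1. Over all 16581 genes, 2290 fell in THP1 and 3639 in NOMO1 by FDR alone. CENPE, a kinetochore motor, was the 1 member with a called difference, at -1.39 (standard error 0.26, adjusted p = 0.000585). Beside 2.28% lower of all genes, that count is no result about the list.

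Interferon-stimulated genes had most of their called differences on the side of THP1. Of 41 members tested, 27 were induced in THP1 and 10 in NOMO1, with median log2 fold changes of 1.25 and 0.60. A higher response in THP1 was called for IFI27, MX1, GBP1, EPSTI1, USP18 and MX2, and a lower one for IFI44, with a median difference of 0.41. The call was lost for IFI27 without NOMO1 untreated replicate 3 (adjusted p = 0.0641 by edgeR), and for GBP1 without that library, without THP1 untreated replicate 2 and with limma voom (adjusted p up to 0.0674). Both rest on few reads. IFI27 had 11 over untreated and 5 over treated NOMO1, and GBP1 had 14 over untreated THP1. MX1, a GTPase that blocks viruses, rose in THP1 from 9.24, 8.69 and 9.15 CPM to 36.5, 40.8 and 34.1 CPM. In NOMO1 it was at 1.39, 1.28 and 1.03 CPM untreated and at 1.14, 1.06 and 0.974 CPM after etoposide, with overlapping groups. The difference was 2.27 (standard error 0.27, adjusted p = 2.49e-06).

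EPSTI1 showed the same form, from 4.54, 5.33 and 4.31 CPM to 20.8, 18.5 and 17.9 CPM in THP1 and from 1.49, 0.761 and 0.776 CPM to 1.57, 1.38 and 0.881 CPM in NOMO1, a difference of 1.67 (standard error 0.34, adjusted p = 0.00134). USP18, the protease that removes ISG15, differed by 1.12 (standard error 0.23, adjusted p = 0.00153). IFI44 ran the other way. It rose in THP1 from 6.54, 8.21 and 5.65 CPM to 17.1, 11.96 and 16 CPM and in NOMO1 from 0.892, 0.618 and 0.724 CPM to 4.19, 6.48 and 5.38 CPM, a difference of -1.69 (standard error 0.32, adjusted p = 0.000686). CXCL10 and CXCL11, described above, are known interferon targets as well.

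MHC class II genes, which present extracellular antigens, had 4 of 12 members with a higher response in THP1 and 0 with a lower one, and a median difference of 0.80. CIITA, the master activator of this family, rose in THP1 from 1.41, 1.17 and 0.538 CPM to 2.42, 3.58 and 2.85 CPM and fell in NOMO1 from 32.6, 38.2 and 32.7 CPM to 19.3, 15.3 and 13.3 CPM. Groups did not overlap in either line, and the difference was 2.61 (standard error 0.31, adjusted p = 3.33e-06). HLA-DRA rose in THP1 from 1.03, 0.586 and 0.807 CPM to 2.51, 2.74 and 2.85 CPM, while NOMO1 had 42.9, 42.9 and 45.9 CPM untreated and 36.7, 30.9 and 35.3 CPM after etoposide. Its difference was 2.09 (standard error 0.25, adjusted p = 3.71e-06). THP1 thus stayed far below NOMO1 in the level of both genes. HLA-DPA1 and the invariant chain gene CD74 were the other members. Reads of HLA genes can be shared between near-identical copies, which makes their values uncertain.

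ATF4 targets and genes of the unfolded protein response were induced in both lines, and 7 of their 8 called differences lay on the side of THP1. Of 26 tested, 19 were induced in THP1 and 14 in NOMO1, with medians of 1.55 and 1.17, and 7 had a higher and 1 a lower response in THP1. TRIB3, a pseudokinase that restrains AKT and ATF4, rose from 34.5, 35.9 and 38.7 CPM to 503, 858 and 523 CPM in THP1. In NOMO1 it rose from 60.3, 68.2 and 67.1 CPM to 337, 338 and 314 CPM. The order of the lines turned around, with THP1 lower before etoposide and higher after it, and the difference was 1.77 (standard error 0.20, adjusted p = 2.1e-06).

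DDIT4, an inhibitor of mTORC1, rose from 8.97, 13.4 and 12.9 CPM to 81.9, 108 and 86.5 CPM in THP1 and from 70.7, 71.6 and 73.1 CPM to 171, 192 and 146 CPM in NOMO1, with a difference of 1.73 (standard error 0.20, adjusted p = 1.79e-06). Here each THP1 library stayed below the NOMO1 libraries of the same treatment. STC2, a secreted stress glycoprotein, differed by 2.99 (standard error 0.31, adjusted p = 5.38e-07), and CHAC1, which degrades glutathione, by 1.59 (standard error 0.25, adjusted p = 7.83e-05). The amino acid genes ASNS, PSAT1 and SLC7A5 completed the higher members, with differences between 1.02 and 1.21, and DNAJB9, a chaperone of the endoplasmic reticulum, was the lower one. DDIT3 and ATF4 itself had no called difference.

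Azurophil granule genes, which encode the enzymes of neutrophil and monocyte granules, differed through NOMO1. Of 14 tested, 5 were repressed in NOMO1 and 1 in THP1, and 4 had a higher difference. MPO, the myeloperoxidase gene, fell in NOMO1 from 2073, 1807 and 2082 CPM to 434, 253 and 489 CPM. In THP1 it was at 11.6, 10.1 and 10.0 CPM untreated and at 6.57, 9.38 and 5.80 CPM after etoposide. The difference was 1.79 (standard error 0.26, adjusted p = 4.4e-05). PRTN3, the proteinase 3 gene, fell in both lines, from 230, 239 and 279 CPM to 88.9, 152 and 104 CPM in THP1 and from 23.6, 19.5 and 30.3 CPM to 3.10, 1.98 and 4.27 CPM in NOMO1, with a difference of 1.85 (standard error 0.29, adjusted p = 8.2e-05). CTSG, the cathepsin G gene, fell in NOMO1 from 197, 178 and 207 CPM to 71.0, 51.0 and 78.6 CPM, while THP1 had 413, 451 and 422 CPM untreated and 343, 518 and 465 CPM after etoposide. ELANE, the neutrophil elastase gene, had 0 CPM in NOMO1 with either treatment.

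Monocyte and macrophage genes gave 16 inductions of 40 tested in THP1 and 14 in NOMO1, with medians of 0.90 and 0.72. S100A9, a subunit of calprotectin, rose in THP1 from 28.2, 39.1 and 35.9 CPM to 137, 158 and 203 CPM. NOMO1 expressed it at 515, 566 and 544 CPM untreated and 492, 511 and 462 CPM after etoposide. The difference was 2.42 (standard error 0.18, adjusted p = 5.12e-09). LYZ, the lysozyme gene, was at 408, 476 and 460 CPM in untreated and 860, 758 and 912 CPM in treated THP1 and at 529, 462 and 503 CPM and 387, 244 and 342 CPM in NOMO1. Neither line passed a ratio of 2, and they moved apart, with a difference of 1.53 (standard error 0.18, adjusted p = 3.16e-06). ITGAM and CD14 were also higher in THP1, and TREM2 and FCGR2B were lower.

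Among 25 myeloid transcription factors, RUNX2, ID1 and ID3 were among the 4 that responded less in THP1, and CEBPE responded more. RUNX2, a factor of bone and myeloid cells, was at 111, 107 and 106 CPM in untreated THP1 and at 83.7, 61.4 and 67.4 CPM after etoposide. In NOMO1 it rose from 32.2, 29.0 and 27.9 CPM to 59.8, 68.6 and 63.1 CPM. The lines did not overlap before etoposide and did after it, with a difference of -1.71 (standard error 0.17, adjusted p = 2.13e-07). ID1, an inhibitor of helix-loop-helix factors, differed by -2.04 (standard error 0.23, adjusted p = 1.54e-06).

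MYC was lower after etoposide in both lines. It went from 156, 164 and 175 CPM to 75.6, 106 and 79.8 CPM in THP1, under a ratio of 2, and from 287, 297 and 299 CPM to 97.4, 69.9 and 100 CPM in NOMO1. The lines differed before etoposide and overlapped after it, and the difference of 0.80 (standard error 0.18, adjusted p = 0.00394) lay within a ratio of 2. Over 30 genes of the MYC network and ribosome biogenesis, the median log2 fold change was -0.18 in THP1 and -0.55 in NOMO1, with 2 members called higher, RRS1 and MYCL, and 2 called lower, MXD3 and MXD4, the latter inside a ratio of 2 without any 1 of 4 libraries, at -0.94 to -0.99. The metallothioneins MT1X, MT1G and MT2A, which bind zinc and copper, fell in NOMO1 and were not called in THP1. MT2A was at 191, 196 and 233 CPM in untreated NOMO1 and at 81.2, 79.3 and 83.9 CPM after etoposide, beside 22.1, 22.2 and 22.7 CPM and 17.5, 21.1 and 16.4 CPM in THP1. Its difference of 1.06 (standard error 0.16, adjusted p = 8.2e-05) was past a ratio of 2 with TMM and inside it with library size alone and without any 1 of 3 libraries, at 0.95 to 1.00, and reads of this family can be shared between copies.

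**Figure D2:**
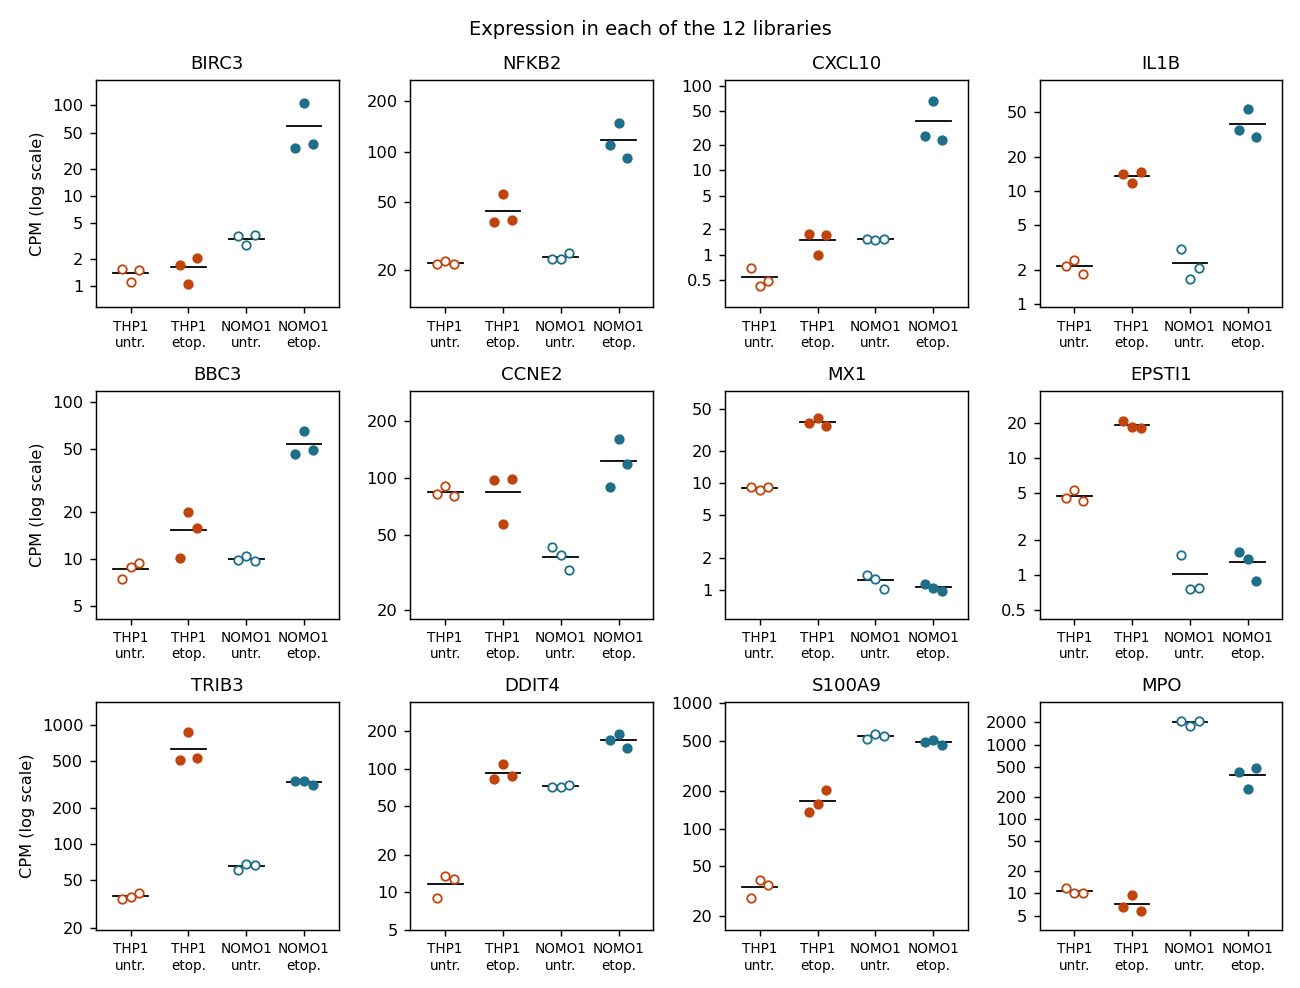
CPM of 12 genes in each of the 12 libraries, on a log axis of its own range in each panel. Open circles are untreated and filled circles etoposide-treated libraries, orange THP1 and blue NOMO1, in replicate order, and the bar is the mean of 3; BIRC3, CXCL10 and BBC3 rise most in NOMO1, MX1 and EPSTI1 rise in THP1, and MPO falls in NOMO1.

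Among protein-coding genes with at least 10 CPM in a group, and with treated and untreated libraries apart in a line, many of the largest differences were found in genes at trace levels in 1 line. Differences of genes below that level could be larger, as for IL1A at -5.81. Of the 1005 genes with a called difference, 748 had a mean of at least 1 CPM in at least 1 group of each line. ORM1, an acute phase protein gene, led the higher side under this limit. It was at 0.108, 0.160 and 0 CPM in untreated THP1, which is 5 reads in all, and at 6.52, 9.22 and 6.04 CPM after etoposide, and NOMO1 went from 11.5, 12.2 and 11.1 CPM to 31.1, 21.5 and 29.2 CPM. The difference was 5.01 (standard error 0.47, adjusted p = 1.62e-07). S100P, a calcium-binding protein gene, and SLC6A9, a glycine transporter gene, had the same form, with differences of 3.99 and 4.03. IGFBP3, which encodes a carrier of insulin-like growth factors, rose in THP1 from 1.30, 1.49 and 1.94 CPM to 38.9, 52.6 and 51.5 CPM, while NOMO1 had at most 0.381 CPM in any library, with a difference of 4.03 (standard error 0.74, adjusted p = 0.000497).

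COPZ2, LHX2, FJX1 and RASD2 were also among the 8 largest higher differences under that limit. COPZ2 and LHX2 had 5 and 6 reads over the untreated NOMO1 libraries and 0 after etoposide, so their fold changes in NOMO1 rest on very few reads. FJX1 and RASD2 fell in NOMO1, from 11.7 to 3.24 CPM and from 17.8 to 7.17 CPM, and had 3 and 1 reads over untreated THP1 and 24 and 9 after etoposide. On the lower side, under the same limit, were PTGDR2, BIRC3, AREG, OPTN, CXCL10, TLR7 and SCG2. PTGDR2, a prostaglandin D2 receptor gene, rose in NOMO1 from 15.4 to 31.3 CPM and had at most 4 reads over any THP1 group, and its call was lost without THP1 untreated replicate 1 or 3 (adjusted p up to 0.0942 by edgeR). AREG, an EGF receptor ligand gene, rose in NOMO1 from 0.744, 0.476 and 0.414 CPM to 13.5, 23.7 and 10.3 CPM, and THP1 had at most 0.870 CPM in any library, with a difference of -3.62 (standard error 0.74, adjusted p = 0.00138).

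Genes chosen for being high in 1 line and nearly silent in the other, untreated, were followed into the treated libraries. Of 51 genes at 20 CPM or more in NOMO1 and under 0.1 CPM in untreated THP1, 17 had 0 reads in all treated THP1 libraries, and the highest level among the 51 was 0.477 CPM. Of 53 such genes of THP1, 29 had 0 reads in treated NOMO1, with a highest level of 0.578 CPM.

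Among genes with at least 10 CPM in each line, a set chosen after the values were seen, the largest higher differences were those of S100P, PFKFB4, JAG1, S100A9, PLD6, RAB7B, SNAI3 and NDST1. PFKFB4, a regulator of glycolysis, fell in NOMO1 from 56.2, 63.9 and 46.1 CPM to 11.2, 8.92 and 12.5 CPM, and THP1 had 14.9, 17.1 and 16.7 CPM untreated and 21.01, 26.3 and 20.8 CPM after etoposide. The untreated order of the lines was thus turned around, with a difference of 2.84 (standard error 0.21, adjusted p = 5.12e-09). JAG1, a Notch ligand gene, rose in THP1 from 3.73, 2.83 and 3.07 CPM to 12.1, 14.9 and 12.04 CPM and stood at 59.8, 60.3 and 58.7 CPM in untreated and 45.1, 39.2 and 42.5 CPM in treated NOMO1, a difference of 2.51 (standard error 0.19, adjusted p = 5.12e-09). Among the largest lower differences were those of C1orf54, C3, LAMB3, ABCA1, PKIB, RASSF8 and FILIP1L. C3, the central complement gene, rose in THP1 from 25.8, 24.1 and 24.6 CPM to 60.6, 53.7 and 48.3 CPM and in NOMO1 from 8.13, 7.13 and 7.604 CPM to 82.0, 123 and 52.5 CPM, a difference of -2.37 (standard error 0.27, adjusted p = 2.05e-06). ABCA1, a cholesterol efflux pump, fell in THP1 from 35.5, 38.8 and 36.4 CPM to 14.5, 10.8 and 13.6 CPM, while NOMO1 had 18.7, 19.0 and 12.9 CPM untreated and 20.1, 35.4 and 23.7 CPM after etoposide, with a difference of -2.15 (standard error 0.25, adjusted p = 1.9e-06).

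Called in opposite directions were 15 genes, 12 induced in THP1 and repressed in NOMO1 and 3 the reverse. Of these 15, 5 had at least 1 CPM in a group of each line. They were CIITA, RAB7B, MGLL and APLN, which rose in THP1 and fell in NOMO1, and FOSB, which did the reverse, and of these MGLL and APLN were named after their values were seen. RAB7B, a small GTPase of endosomes, rose in THP1 from 29.3, 32.0 and 32.6 CPM to 59.7, 69.0 and 73.4 CPM and fell in NOMO1 from 355, 372 and 380 CPM to 198, 156 and 190 CPM. Both changes lay just past a ratio of 2, at log2 values of 1.10 and -1.02, and the difference was 2.13 (standard error 0.16, adjusted p = 5.12e-09).

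The targets of etoposide itself did not have a called difference. TOP2A, the topoisomerase of dividing cells, was at 749, 658 and 727 CPM in untreated and 570, 385 and 584 CPM in treated THP1, and at 669, 538 and 500 CPM and 411, 526 and 547 CPM in NOMO1. The difference was -0.27 (standard error 0.20, adjusted p = 0.38), and for TOP2B it was -0.34 (standard error 0.19, adjusted p = 0.221). Among genes the study followed up, BCL2A1, an anti-apoptotic BCL2 relative and NF-kB target, rose in THP1 from 1.89, 1.44 and 1.399 CPM to 8.89, 6.43 and 10.3 CPM and in NOMO1 from 16.9, 15.5 and 17.9 CPM to 35.8, 42.0 and 40.2 CPM, with a higher response in THP1 by 1.20 on the log2 scale (standard error 0.25, adjusted p = 0.0014). BCL2A1 thus went against the direction of the called NF-kB list members. PRKCH and IGF1R differed by 0.08 (standard error 0.44, adjusted p = 0.954) and -0.14 (standard error 0.24, adjusted p = 0.761), and PLK1 by 0.70 (standard error 0.17, adjusted p = 0.00605), within a ratio of 2. These genes were chosen by the study on these samples.

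No member of 4 lists had a called difference, beside 3.78% higher and 2.28% lower of all genes tested. These were the DNA damage checkpoint and repair genes (37 tested) and the cholesterol and fatty acid synthesis genes (29). The others were the replication-dependent histones (10) and the erythroid and megakaryocyte markers (6). With so few members, the absence of calls is no result about these lists. Cholesterol and fatty acid synthesis genes were repressed in both lines, 9 of 29 in THP1 and 12 in NOMO1, with medians of -0.65 and -0.89.

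MOLM13 and MONOMAC6 are the other lines of the series with the same fusion, and 24 libraries of the 4 lines were fitted together with 17533 genes tested. In that fit THP1 and NOMO1 differed in 1048 genes (5.98%), THP1 and MOLM13 in 1876 (10.7%), THP1 and MONOMAC6 in 1375 (7.84%), NOMO1 and MOLM13 in 2395 (13.7%), and NOMO1 and MONOMAC6 in 955 (5.45%). These comparisons share libraries, so their counts are given side by side only. For BIRC3 the log2 fold change was 1.12 in MOLM13, not called (standard error 0.83, adjusted p = 0.297 by edgeR), and 3.79 in MONOMAC6. For NFKB2 it was 0.60 in MOLM13 and 2.12 in MONOMAC6. CXCL10 rose in MONOMAC6 with a log2 fold change of 4.97. MX1 had values of 0.81 in MOLM13 and 2.48 in MONOMAC6, and TRIB3 had -1.14 and 1.07. The fold changes of MONOMAC6 lay near NOMO1 for BIRC3, NFKB2 and CXCL10 and near THP1 for MX1, while for TRIB3 they lay below both THP1 and NOMO1. STC2 fell in MOLM13 by 2.63 on the log2 scale.

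**Figure D3:**
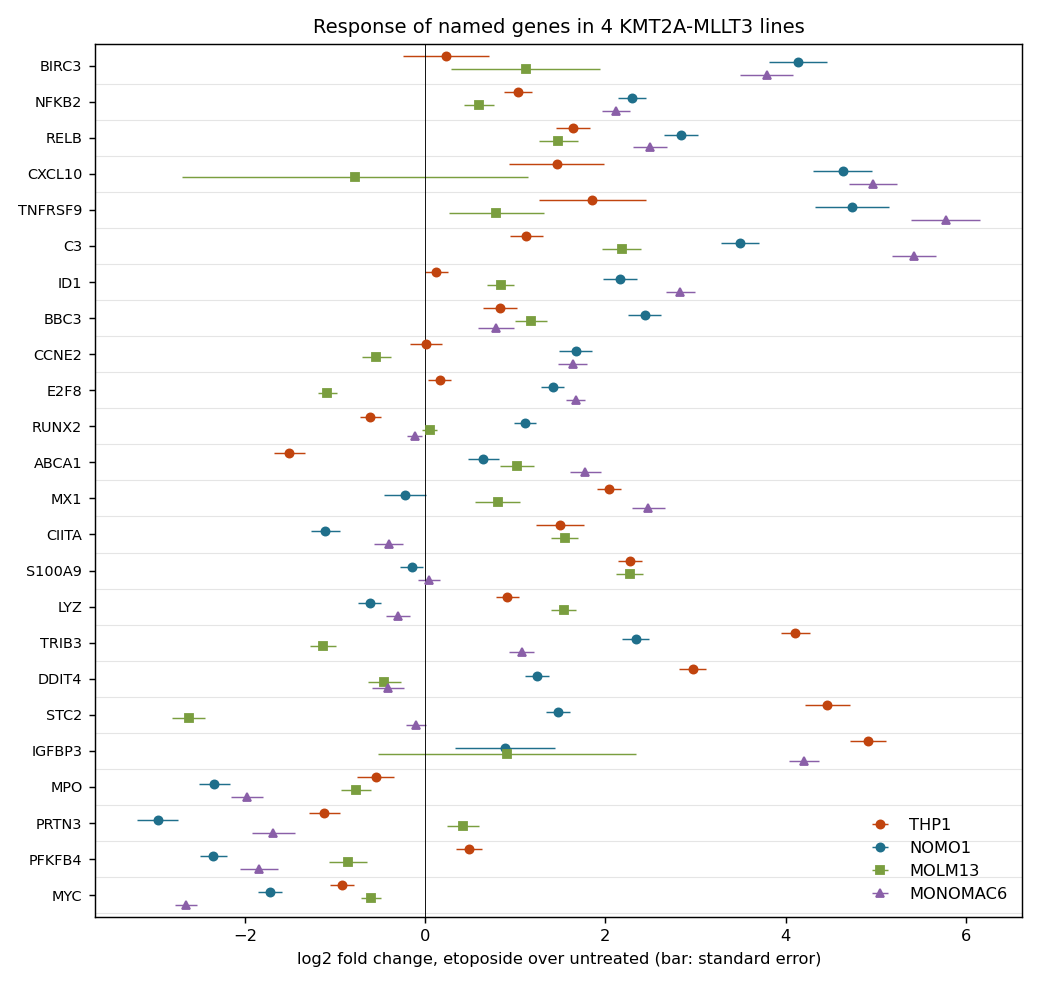
Log2 fold change of etoposide over untreated cells for named genes in THP1, NOMO1, MOLM13 and MONOMAC6, with the standard error as a bar. BIRC3, NFKB2 and CXCL10 lie to the right in NOMO1 and MONOMAC6, TRIB3 and STC2 lie furthest right in THP1, and MPO lies left in NOMO1 and MONOMAC6.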

How the data were processed

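RNA was measured by single-end sequencing of stranded mRNA libraries. Per the labels and the study's methods, the authors mapped reads to GRCh38.p7 (gencode release 25) with STAR 2.5.3a and deposited, for each library, the counts of reads per gene without normalization. Here 57992 genes were analysed after leaving out 45 pseudoautosomal copies without reads. Names came from gencode release 44.

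The 12 libraries were fitted in edgeR 4.0.16 (R 4.3.3) with 1 mean per group, filterByExpr (minimum count 10, minimum total 15), TMM and quasi-likelihood F tests, whose p-values were adjusted by Benjamini-Hochberg across the genes tested. The standard error is the log2 value divided by the square root of F. A difference was called with FDR below 0.05 and a ratio of fold changes above 2. On simulated counts of 16307 genes, 195 of 200 changed genes were recovered with 2 false calls. This rate belongs to the simulated counts alone. It is no estimate for the real calls, which include genes with few reads and differences near a ratio of 2. Depth was between 18907941 and 22064262 reads, so 3 reads in a library, the limit that a count of 0 allows, is between 0.136 and 0.159 CPM, for counting error only.

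Genes named were the 8 largest differences in each direction among protein-coding genes with at least 10 CPM in a group and no overlap between treatments in a line, up to 4 genes called in opposite directions in each orientation at the same level, up to 3 called members of each gene list and 9 genes of the drug and the study. A few genes that the rule names are not reported here. Other list members and the set with at least 10 CPM in each line were chosen after their values were seen. The libraries, lists and rules were chosen with earlier results of these data known.

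Alternatives were DESeq2 1.42.0, limma 3.58.1 voom, other normalization and filters, no fold minimum, the replicate block, 1 fit of 24 libraries, each line alone and leaving out each library.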

Additional observations from a re-analysis of the deposited data

Results flagged for a closer look

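The responses of the lines to etoposide differed by the interaction test for 627 genes that were higher in THP1 and 378 that were lower, and 15 genes were called in opposite directions. Among those of the 15 with at least 10 CPM in a group, the limit of the rule for naming genes, the differences included COPZ2 at 4.86, FJX1 at 4.61, RASD2 at 4.0, CIITA at 2.61 and PTGDR2 at -4.67 on the log2 scale. Those of COPZ2 and PTGDR2 are fitted values against a group with 0 reads, which depend on the prior count and are no bound. COPZ2 had 5 reads over the untreated and 0 over the treated NOMO1 libraries, RASD2 had 1 and 9 and FJX1 3 and 24 reads in untreated and treated THP1, and PTGDR2 had 4 and 0 there, so the opposite direction of these 4 genes rests on few reads in 1 line. CIITA was above 0.5 CPM in each library and its difference stayed between 2.30 and 2.88 in every alternative with a value. Groups of 3 libraries were not searched for outlying samples.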

How the results depend on the processing

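Of the 78 named genes with a called difference, 63 kept the call in every alternative with a value and 15 lost it in at least 1, among them MT2A, FLT3, PMAIP1 and MXD4, near a ratio of 2, and TNFRSF9, TNFSF15 and PTGDR2, with few reads in 1 line. No named call changed its sign, while PRKCH, not called, had differences of -0.02 with library size alone, -0.36 without NOMO1_CTR replicate 2 and -0.17 without NOMO1_ETOP replicate 3, and IGF1R, not called, of 0.08 without THP1_CTR replicate 1; leaving out 1 library, they ranged from -0.36 to 0.33 and from -0.28 to 0.08. With a mean of at least 5 CPM, which leaves fewer genes tested, 354 genes were higher and 221 lower in THP1, 547 and 135 were induced and repressed in THP1, 562 and 316 in NOMO1, and 5 were opposite, and the counts were 993 for THP1 and MOLM13, 749 for THP1 and MONOMAC6, 1490 for NOMO1 and MOLM13 and 489 for NOMO1 and MONOMAC6. Without a fold minimum, which only widens the call, they were 1855 and 1095, 3300 and 2290, 3731 and 3639, 267, and 5395, 4286, 6451 and 3197, with 197 distinct list members called beside 78. With at least 1 CPM in each line, a filter chosen after seeing the data, 705 and 266 genes were called in THP1, 740 and 462 in NOMO1 and 5 in opposite directions. Leaving out 1 library gave between 444 and 647 higher and between 301 and 546 lower differences, and between 67 and 85 list members. The lowest counts were those without NOMO1_ETOP replicate 2, under which 713 of the 1005 calls were kept. Lower calls went from 1 to 3 among complement and phagocyte oxidase genes without THP1_CTR replicate 2 and from 2 to 4 among monocyte and macrophage genes without THP1_ETOP replicate 1. Whether an untreated and a treated library with the same replicate number belong together was not settled. Their departures from the group means had r between -0.35 and 0.19 in THP1 and NOMO1. In MOLM13 and MONOMAC6, r was positive for each such pair, between 0.04 and 0.26, and between -0.22 and 0.09 for unlike numbers. With means of 3 libraries these r values depend on each other, so they cannot decide the question. With the replicate block 581 differences were higher and 357 lower. DESeq2 kept 894 and limma voom 944 of the 1005 calls. Differences of genes with few reads are limited by depth, and the replicates describe 1 culture of each line.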
